A study of Mus musculus with 4 samples.

Results

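The 10 genes described here, Ogt, Mgea5, Gfpt1, Gfpt2, Gnpnat1, Pgm3, Uap1, Nagk, Gnpda1 and Amdhd2, encode the enzymes of O-GlcNAc cycling and of the hexosamine pathway. They were taken by name from a list, and all 10 were present among the 27998 genes of both count tables. Their levels are given as CPM, the unique molecular identifiers (UMIs) of a gene in all cells of a class together, scaled to a class total of 1000000 UMIs. Cells were embryonic mouse pancreas at E15.5, profiled on the 10x Genomics platform. Control cells came from OGTflox/flox embryos, which carry floxed Ogt and no Cre in their label (the genotype field reads WT), and were sorted on E-cadherin. Knockout cells came from PdxCre;OGTflox/flox;CAG GFP embryos and were sorted on endogenous GFP. The Cre transgene is driven by Pdx, a gene of the pancreatic epithelium, so that cells outside this lineage are not its target. Each genotype is 1 library sequenced in 2 runs that the tables do not separate, the number of embryos is not given in the sources used here, and genotype and sort cannot be told apart in any comparison.

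O-GlcNAc is a sugar that is placed on serines and threonines of nuclear and cytoplasmic proteins. OGT, encoded by Ogt, adds it and O-GlcNAcase, encoded by Mgea5 (an older symbol of Oga), removes it. The donor, UDP-GlcNAc, is made from fructose phosphate and glutamine. GFPT1 and its paralogue GFPT2 catalyse the entry step, GNPNAT1 acetylates the glucosamine phosphate, PGM3 moves the phosphate and UAP1 attaches the nucleotide. NAGK phosphorylates GlcNAc that is salvaged from degraded glycans. AMDHD2 removes the acetyl group and GNPDA1 turns glucosamine phosphate back into fructose phosphate and ammonia, so that these enzymes run from the hexosamine pathway towards glycolysis. In acinar cells, which secrete large amounts of digestive enzymes, UDP-GlcNAc also feeds N-glycosylation in the endoplasmic reticulum.

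Promoter sequences of 8 of the 10 genes were found in the RefSeq table (GRCm38.p6), which gives 250 bases before and 50 after a transcription start. Those of the cycling pair are shown because log2 levels of Ogt and Mgea5 had a Pearson r of 0.66 over 13 classes. Those of the Gfpt pair are shown because Gfpt1 was read in every class of at least 13 cells and Gfpt2 had no UMI in 9 of these 17. Capitals mark matches, on either strand, to 4 motifs. These were GGGCGG, the GC box, present in 35.7% of all 32851 promoters of this length, CCAAT, present in 37.4%, TATAAA, present in 13.6%, and TGACGT, present in 7.51%. The Ogt sequence is the upstream of 2 listed starts (chrX:101639801-101640100, plus strand), the Mgea5 sequence lies at chr19:45783504-45783803 (minus strand), that of Gfpt1 at chr6:87042596-87042895 (plus strand) and that of Gfpt2 at chr11:49793905-49794204 (plus strand). Each is written 5′ to 3′.
Ogt: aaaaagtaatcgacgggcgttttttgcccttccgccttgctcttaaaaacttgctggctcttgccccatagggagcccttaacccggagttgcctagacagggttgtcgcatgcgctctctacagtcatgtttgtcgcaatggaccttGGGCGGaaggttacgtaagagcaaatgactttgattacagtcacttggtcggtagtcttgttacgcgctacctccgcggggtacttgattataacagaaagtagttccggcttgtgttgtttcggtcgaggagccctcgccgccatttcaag
Mgea5: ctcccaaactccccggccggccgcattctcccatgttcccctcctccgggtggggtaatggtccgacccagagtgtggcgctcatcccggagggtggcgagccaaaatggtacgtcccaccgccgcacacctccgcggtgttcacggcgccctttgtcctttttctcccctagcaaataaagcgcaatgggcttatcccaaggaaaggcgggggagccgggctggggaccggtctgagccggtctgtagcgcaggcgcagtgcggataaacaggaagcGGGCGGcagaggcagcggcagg
Gfpt1: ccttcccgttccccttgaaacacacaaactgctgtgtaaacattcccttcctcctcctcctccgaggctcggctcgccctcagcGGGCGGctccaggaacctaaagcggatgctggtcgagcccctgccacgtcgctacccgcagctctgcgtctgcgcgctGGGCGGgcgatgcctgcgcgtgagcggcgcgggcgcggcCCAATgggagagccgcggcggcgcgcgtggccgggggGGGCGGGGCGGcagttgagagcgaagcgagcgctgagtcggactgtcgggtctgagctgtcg
Gfpt2: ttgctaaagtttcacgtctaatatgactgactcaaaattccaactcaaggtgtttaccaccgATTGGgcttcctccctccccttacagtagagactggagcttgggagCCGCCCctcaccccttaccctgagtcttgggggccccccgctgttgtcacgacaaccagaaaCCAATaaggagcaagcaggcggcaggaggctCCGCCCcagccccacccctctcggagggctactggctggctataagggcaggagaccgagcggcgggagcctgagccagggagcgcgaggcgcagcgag
None of these sequences held TATAAA or TGACGT. Ogt and Mgea5 each held 1 GC box and no CCAAT. Gfpt1 held 4 GC boxes, of which 2 share a base, and 1 CCAAT, and Gfpt2 held 2 of each. The Gfpt1 window had 38 CG pairs and a GC content of 70.3%, against 15 pairs and 60.7% for Gfpt2, 26 pairs and 65.3% for Mgea5 and 20 pairs and 51% for Ogt. The median over all promoters was 7 CG pairs and 52.7%. These matches describe letters in the windows and no binding was measured.

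The control library held 941 cell barcodes with 11973979 UMIs and the knockout library 617 with 11064540, and no barcode was shared. After filtering, 921 and 553 cells remained, and they formed 18 clusters, named from marker genes and written as X-like. Although both libraries are labelled as pancreatic epithelial cells, 105 of the kept control cells (11.4%) and 266 of the kept knockout cells (48.1%) fell in epithelial-like clusters, while 717 control cells (77.9%) were leukocyte-like. The knockout library added 142 mesenchyme-like and 65 mesothelium-like cells, which the control library held as 8 and 0. Xist was read in 22.8% of control and 99.1% of knockout cells. Markers of other classes were read in both libraries. The 16 macrophage markers summed to 2263 CPM in control acinar-like cells (16 of 16 read) and 230 CPM in knockout ones (15 of 16). The 21 acinar markers summed to 3990 CPM in control macrophage-like cells (20 of 21). In the knockout library these acinar markers summed to 7501 CPM in mesenchyme-like, 7260 in S100a8-led and 41369 in acinar-like cells. Whether these UMIs came from RNA of lysed cells was not tested, nor was the part of such free RNA in the results below. A cluster led by S100a8 and S100a9 scored as neutrophil-like, but its 2 arms differed. Its 46 control cells read 4 of 12 neutrophil markers (2057 CPM) and 12 of 14 monocyte markers (9224 CPM, against 6050 in monocyte-like cells), and its 20 knockout cells 12 of 12 (31590 CPM) and 11 of 14 (5978 CPM). It is therefore called S100a8-led. The 27 knockout lymphoid-like cells read 19 of 19 lymphoid markers (3449 CPM) and also 15 of 16 macrophage markers (6211 CPM, against 183 to 232 in the knockout epithelial-like classes). The 104 control dendritic-like cells read 8 of 11 dendritic markers (1441 CPM) and also 13 of 14 monocyte markers (4877 CPM). Their cycling markers summed to 2051 CPM, against 241 in control monocyte-like cells. The part of this makeup in their levels was not tested. With 1 library per genotype nothing was tested, no difference has a replicate check, and the 95% intervals given in brackets (exact Poisson for levels, exact conditional for ratios) cover counting error only. A gene was called higher or lower when the ratio of levels was at least 1.5 in either direction with at least 20 UMIs over both groups.

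Ogt and Mgea5 were read in each of the 17 classes of at least 13 cells. In the control library Ogt stood at 37.1 CPM in 50 acinar-like cells (48 UMIs, 27.4 to 49.2), 86.7 in 35 trunk/ductal-like cells (43 UMIs, 62.7 to 117) and 123 in 20 endocrine-like cells (21 UMIs, 76.0 to 188). Among control leukocyte-like cells it measured 74.9 in 414 macrophage-like cells (335 UMIs, 67.1 to 83.3), 68.6 in 146 monocyte-like cells (117 UMIs, 56.7 to 82.2), 57.1 in 46 S100a8-led cells (26 UMIs) and 34.4 in 104 dendritic-like cells (55 UMIs, 25.9 to 44.8). Dendritic-like cells, which also carried monocyte markers, were thus the low control immune class, at the level of the acinar-like cells. Their interval did not meet that of macrophage-like or monocyte-like cells. In the knockout library Ogt reached 108 CPM in mesenchyme-like cells (186 UMIs, 93.1 to 125) and 95.1 in mesothelium-like cells (99 UMIs, 77.3 to 116). It stood at 62.9 in 42 trunk/ductal-like cells (53 UMIs), 38.2 in 93 acinar-like cells (112 UMIs), 29.5 in 42 endocrine-like cells (21 UMIs) and 26.9 in 89 cells of a second trunk/ductal-like cluster (48 UMIs, 19.9 to 35.7). The last cluster held no control cell and is called Cym-high, since Cym, which encodes the gastric protease chymosin, leads its genes. It was set apart after its values were seen. The 13 mast-like, 27 lymphoid-like and 20 S100a8-led knockout cells gave 58.9, 52.6 and 46.5 CPM from 11, 27 and 14 UMIs. Ordered over the 17 classes of at least 13 cells, Ogt ran from 26.9 to 123 CPM with a median of 57.1, and no neighbours in this order had intervals that lay apart.

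Mgea5 followed a partly similar order at its own scale. Acinar-like cells were low in both libraries, at 17.0 CPM in control (22 UMIs, 10.7 to 25.8) and 16.0 in knockout (47 UMIs, 11.8 to 21.3), and Cym-high cells stood at 14.6 (26 UMIs, 9.53 to 21.4). Trunk/ductal-like cells gave 36.3 in control (18 UMIs) and 30.8 in knockout (26 UMIs), and endocrine-like cells 64.3 (11 UMIs) and 29.5 (21 UMIs). Control macrophage-like, monocyte-like, dendritic-like and S100a8-led cells gave 45.1, 38.1, 29.4 and 24.2 CPM from 202, 65, 47 and 11 UMIs. Knockout lymphoid-like, mesothelium-like, mast-like, S100a8-led and mesenchyme-like cells gave 44.8, 42.3, 37.5, 33.2 and 29.0 CPM. Mesenchyme-like cells were thus the highest knockout class for Ogt but not for Mgea5. Across the 13 classes of at least 30 cells, log2 levels of Ogt and Mgea5 had a Pearson r of 0.66, a description over points that share 2 libraries and any free RNA in them. The antisense gene Gm15491 overlaps the 3′ end of Mgea5, and whether counting used strand is not given in the sources used here. It was counted at 0.931 and 3.57 CPM over the 2 libraries.

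**Figure D1:**
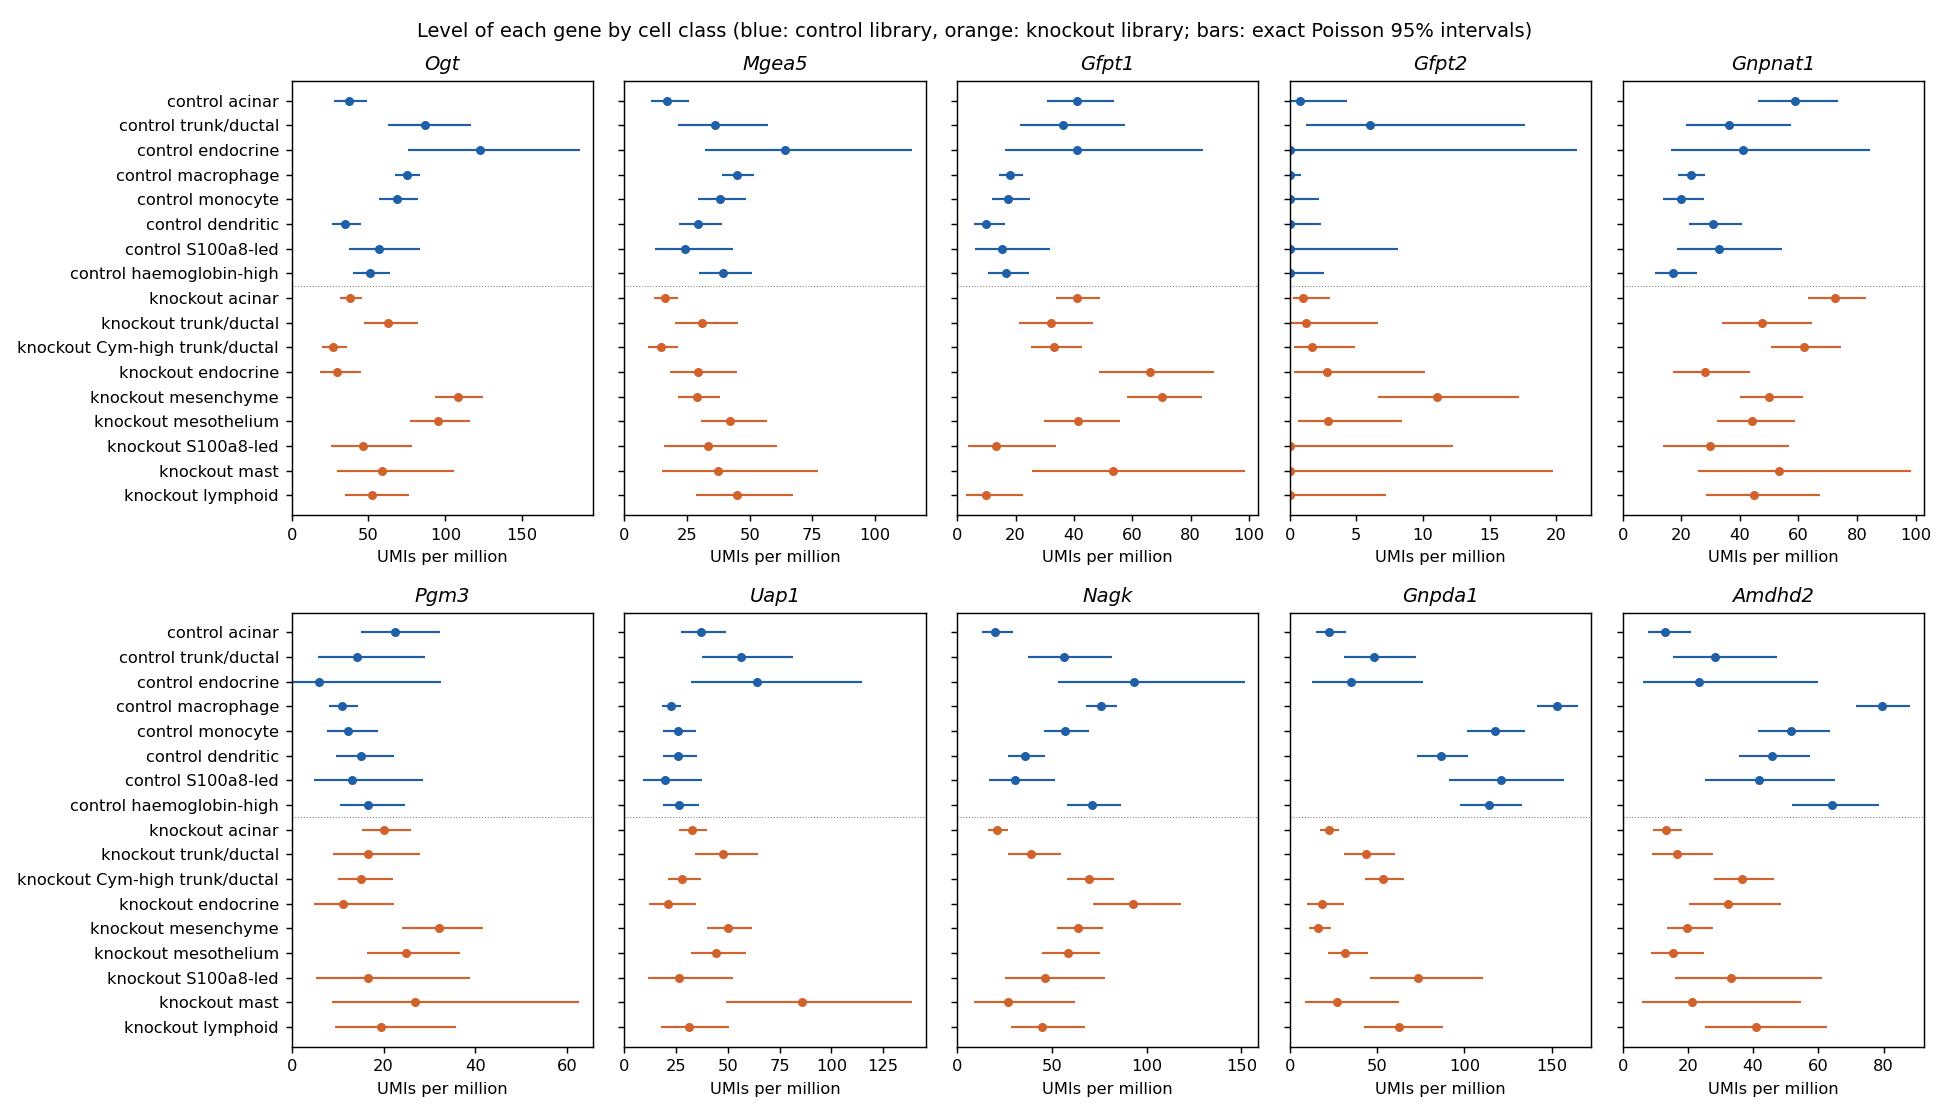
Level of each of the 10 genes (x axis, CPM) in the 17 cell classes with at least 13 cells (y axis), with points for the summed level, bars for exact Poisson 95% intervals, blue for the control and orange for the knockout library. Gfpt1 stands at 10.0 to 18.1 CPM in the 4 control immune classes (macrophage, monocyte, dendritic, S100a8-led) and Gnpda1 at 86.4 to 153 in the same classes, against 41.0 and 22.4 in control acinar-like cells.

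Within a class, the ratio of Ogt to Mgea5 UMIs serves to compare classes and not the abundance of the proteins. It was 2.18 in control acinar-like cells (1.29 to 3.80), 2.39 in control trunk/ductal-like cells, 1.66 in macrophage-like cells (1.39 to 1.98), 1.80 in monocyte-like cells and 1.17 in dendritic-like cells (0.778 to 1.77). In the knockout library it was 2.38 in acinar-like cells (1.68 to 3.43), 2.04 in trunk/ductal-like cells, 1.85 in Cym-high cells, 2.25 in mesothelium-like cells, 3.72 in mesenchyme-like cells (2.71 to 5.19) and 1.00 in endocrine-like cells (0.520 to 1.92). Mesenchyme-like cells had the highest point, and their interval lay above those of the macrophage-like, monocyte-like, dendritic-like and knockout endocrine-like cells. The acinar-like intervals of the 2 libraries overlapped almost in full.

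The entry step was read mainly as Gfpt1. Gfpt1, the rate-limiting enzyme of the pathway, stood at 41.0 CPM in control acinar-like cells (53 UMIs, 30.7 to 53.6) and 40.9 in knockout ones (120 UMIs, 33.9 to 48.9). Trunk/ductal-like cells gave 36.3 (18 UMIs) and 32.0 (27 UMIs), Cym-high cells 33.1 (59 UMIs), and endocrine-like cells 40.9 (7 UMIs) and 66.1 (47 UMIs, 48.6 to 87.9). Knockout mesenchyme-like cells were at 70.3 (121 UMIs, 58.3 to 84.0) and mesothelium-like cells at 41.3 (43 UMIs). Immune classes were low, with 18.1 CPM in control macrophage-like cells (81 UMIs, 14.4 to 22.5), 17.6 in monocyte-like, 15.4 in S100a8-led and 10.0 in dendritic-like cells (16 UMIs, 5.73 to 16.3). Knockout lymphoid-like and S100a8-led cells were as low, at 9.74 and 13.3 CPM from 5 and 4 UMIs. The 13 mast-like cells had the highest immune level, 53.5 CPM (10 UMIs, 25.7 to 98.4), with an interval that met some of the others.

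Gfpt2 was sparse, and most of its UMIs in the knockout library came from mesenchyme-like cells. These held 19 of the 31 knockout UMIs, in 15 of 142 cells, or 11.04 CPM (6.65 to 17.2). No UMI was found in the 717 control and 79 knockout leukocyte-like cells, where 3 counts would equal 0.360 and 2.27 CPM. Epithelial-like and mesothelium-like classes held 0 to 3 UMIs each, the highest level being 6.05 CPM in control trunk/ductal-like cells from 3 UMIs (1.25 to 17.7). This interval met that of mesenchyme-like cells. So did those of mesothelium-like (2.88 CPM, 0.594 to 8.42), knockout endocrine-like (2.81, 0.341 to 10.2) and control endocrine-like cells (0, up to 21.6). After each cell was thinned to 5000 UMIs, 8 of 142 mesenchyme-like cells (5.63%, exact binomial 2.46 to 10.8, 5.41% expected over all draws) kept a Gfpt2 UMI, against 0 of 646 control leukocyte-like cells, which allows a share of cells with a UMI of up to 0.464% (3 cells of 646). Unthinned, the shares were 10.6% and 0%, at median depths of 11357.5 and 10267 UMIs. Of the thinned mesothelium-like cells, 2 of 65 kept a Gfpt2 UMI (3.08%, 0.375 to 10.7), and this interval overlapped that of the thinned mesenchyme-like cells. Among the mesenchyme-like clusters, Gfpt2 stood at 12.9 CPM (7.35 to 20.9) in 106 knockout cells led by Col1a1, 9.67 (1.99 to 28.3) in 22 cells led by Sfrp2 and 0 (up to 22.2) in 14 cells led by Kazald1, Nkx2-5 and Tlx1. These intervals overlapped.

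Of the later steps of synthesis, Gnpnat1 stood at 58.8 CPM in control acinar-like cells (76 UMIs, 46.3 to 73.6) and 72.6 in knockout ones (213 UMIs, 63.2 to 83.1), which was the highest class for this gene. Cym-high cells gave 61.7 (110 UMIs), mesenchyme-like cells 49.96 (86 UMIs), and control macrophage-like and monocyte-like cells 23.2 (104 UMIs) and 19.9 (34 UMIs). Knockout lymphoid-like cells were higher than these, at 44.8 (23 UMIs, 28.4 to 67.2). In knockout endocrine-like cells Gnpnat1 was at 28.1 (20 UMIs), near the 30.7 and 32.9 of control dendritic-like and S100a8-led cells. Pgm3, the mutase, showed no such split between epithelium and immune cells. Its lowest level was 5.84 in control endocrine-like cells, from 1 UMI (0.148 to 32.6). That interval met the one of mesenchyme-like cells, the highest class. Knockout endocrine-like cells were at 11.2 (8 UMIs), control trunk/ductal-like cells at 14.1 and Cym-high cells at 15.2. It stood at 22.4 CPM in control acinar-like (29 UMIs), 10.9 in macrophage-like (49 UMIs, 8.10 to 14.5), 12.3 in monocyte-like, 20.1 in knockout acinar-like (59 UMIs) and 32.0 in mesenchyme-like cells (55 UMIs, 24.1 to 41.6). Uap1, which makes the final donor, was at 37.1 in control acinar-like (48 UMIs), 56.4 in trunk/ductal-like (28 UMIs), 64.3 in endocrine-like (11 UMIs) and 22.3 in macrophage-like cells (100 UMIs, 18.2 to 27.2). In the knockout library Uap1 was at 32.7 in acinar-like (96 UMIs), 49.96 in mesenchyme-like (86 UMIs), 21.1 in endocrine-like (15 UMIs) and 85.6 in mast-like cells (16 UMIs, 48.9 to 139). In mast-like cells 5 of the 13 cells held 93.75% of these UMIs. Styx overlaps Gnpnat1 and Dop1a overlaps the 3′ end of Pgm3, at 7.28 and 7.45 CPM in the control and 5.50 and 9.27 CPM in the knockout library.

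Nagk, the salvage kinase, had another order. It was low in acinar-like cells of both libraries, at 20.1 CPM in control (26 UMIs, 13.1 to 29.5) and 21.1 in knockout (62 UMIs, 16.2 to 27.1). It was high in endocrine-like cells of both, at 93.5 (16 UMIs, 53.4 to 152) and 92.8 (66 UMIs, 71.8 to 118). Macrophage-like cells followed at 76.0 (340 UMIs, 68.1 to 84.5), Cym-high cells at 69.6 (124 UMIs), mesenchyme-like cells at 63.9 (110 UMIs), mesothelium-like cells at 58.6 (61 UMIs) and trunk/ductal-like cells at 56.4 in control (28 UMIs) and 39.1 in knockout (33 UMIs). Among the immune classes the low levels were those of control dendritic-like cells (35.7, 57 UMIs), control S100a8-led cells (30.7, 14 UMIs) and knockout mast-like cells (26.8, 5 UMIs).

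Of the return steps, Gnpda1 was the gene with the widest range over classes. It stood at 153 CPM in macrophage-like (684 UMIs, 142 to 165), 121 in S100a8-led (55 UMIs), 117 in monocyte-like (200 UMIs) and 86.4 in dendritic-like control cells (138 UMIs, 72.6 to 102). Control acinar-like cells held 22.4 (29 UMIs, 15.02 to 32.2), trunk/ductal-like cells 48.4 (24 UMIs) and endocrine-like cells 35.1 (6 UMIs). In the knockout library it was lowest in mesenchyme-like cells, at 16.3 (28 UMIs, 10.8 to 23.5), and stood at 22.2 in acinar-like (65 UMIs), 53.3 in Cym-high (95 UMIs), 62.3 in lymphoid-like (32 UMIs) and 73.1 in S100a8-led cells (22 UMIs). Every immune class of at least 13 cells other than mast-like cells (26.8, 5 UMIs) thus lay above every epithelial-like class, by the levels and not by the intervals. Amdhd2 gave 79.6 in macrophage-like (356 UMIs, 71.5 to 88.3), 51.6 in monocyte-like, 45.7 in dendritic-like and 41.7 in S100a8-led control cells, against 13.1 in control acinar-like cells (17 UMIs, 7.66 to 21.0). Knockout acinar-like, mesothelium-like, trunk/ductal-like and mesenchyme-like cells were at 13.3, 15.4, 16.6 and 19.8 CPM from 39, 16, 14 and 34 UMIs, and Cym-high cells at 36.5 (65 UMIs, 28.2 to 46.5). Knockout endocrine-like cells gave 32.3, lymphoid-like cells 40.9, S100a8-led cells 33.2 and mast-like cells 21.4, so immune and epithelial-like levels of Amdhd2 overlapped in that library. The 3 macrophage-like clusters differed in degree: 165 cells led by Lyve1, Pf4 and Mrc1 had 179 CPM of Gnpda1 and 94.7 of Amdhd2, 101 cells led by Slc40a1 and Hmox1 had 154 and 77.7, and 148 cells led by Ccl4 had 124 and 64.5.

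The forward genes (Gfpt1, Gfpt2, Gnpnat1, Pgm3 and Uap1) and the return genes (Amdhd2 and Gnpda1) were also summed, with Nagk outside the ratio. The forward genes lead from fructose phosphate to UDP-GlcNAc. Paralogues outside the listed genes are not in these sums. Among them are Gnpda2 and Uap1l1, which stood higher in macrophage-like than in acinar-like control cells. Their effect on the ratio was not tested. The ratio thus compares classes over the listed genes only, and a value of 1 marks no balance between the directions. Control acinar-like cells held 207 forward and 46 return UMIs, a ratio of 4.50 (3.26 to 6.34), and knockout acinar-like cells 491 and 104, a ratio of 4.72 (3.81 to 5.89). Macrophage-like cells held 334 and 1040 UMIs, a ratio of 0.321 (0.283 to 0.364), and monocyte-like, S100a8-led and dendritic-like control cells 0.448, 0.5 and 0.616. Each of these 4 immune intervals lay below 1 and each acinar-like interval above it. Mesenchyme-like cells had the highest ratio, at 5.92 (4.51 to 7.88), mesothelium-like cells 3.35 (2.42 to 4.70), trunk/ductal-like cells 1.95 (1.3 to 2.96) in control and 2.39 (1.71 to 3.38) in knockout, and Cym-high cells 1.56 (1.27 to 1.91). In the knockout library lymphoid-like cells, which also carried macrophage markers, stood at 1.02 (0.684 to 1.52) and S100a8-led cells at 0.812 (0.465 to 1.41), so their intervals held 1, while mast-like cells stood at 4.56 (2.18 to 10.7).

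**Figure D2:**
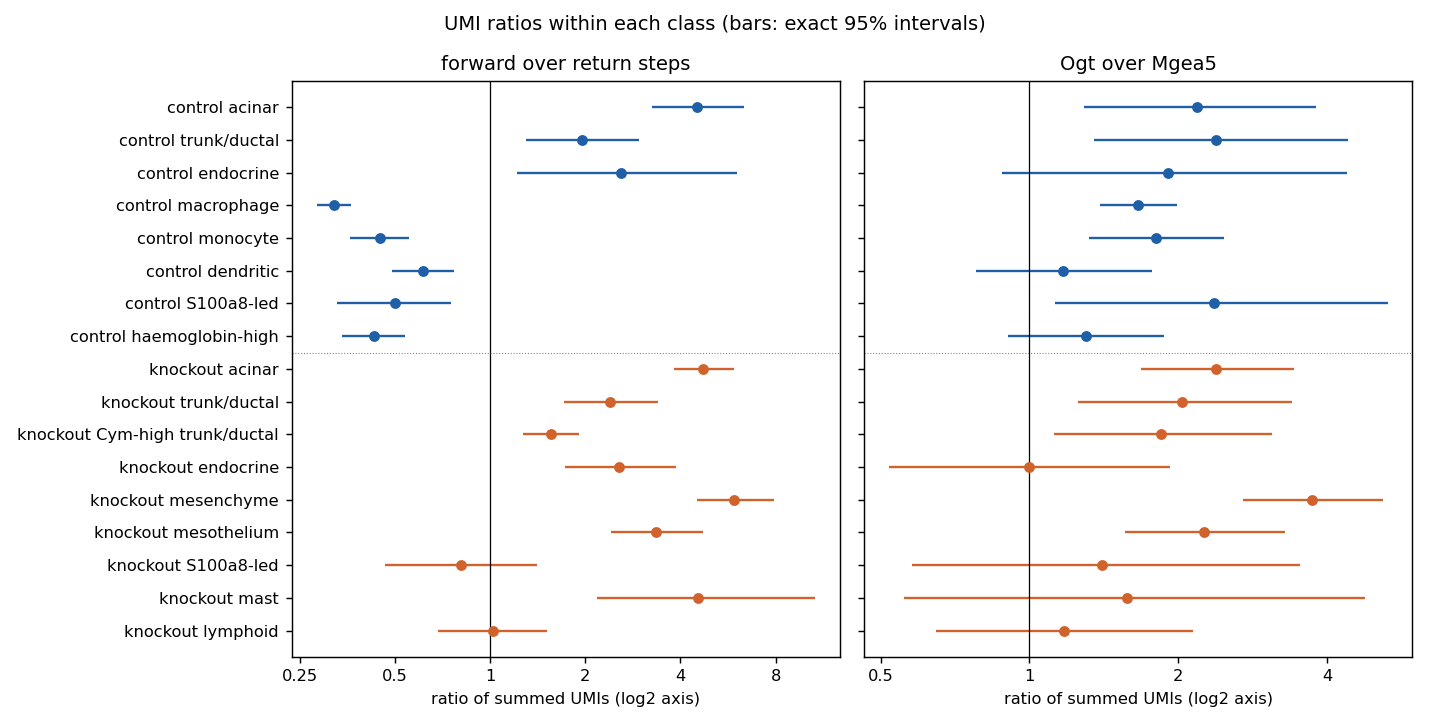
Ratio of summed UMIs of forward to return genes (left) and of Ogt to Mgea5 (right) in the 17 classes with at least 13 cells, on log2 axes, with exact 95% intervals, blue for control and orange for knockout. The macrophage, monocyte, dendritic and S100a8-led control classes sit at 0.321 to 0.616 in the left panel, and all epithelial-like, mesenchyme-like and mesothelium-like classes sit above 1.

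Set against acinar-like cells of the same library, macrophage-like cells were higher in 5 and lower in 4 of the 9 genes with at least 20 UMIs, and Gfpt2 did not reach that floor. Higher were Gnpda1 (6.82-fold, 4.70 to 10.3), Amdhd2 (6.05-fold, 3.73 to 10.5), Nagk (3.78-fold, 2.53 to 5.87), Mgea5 (2.65-fold, 1.71 to 4.33) and Ogt (2.02-fold, 1.49 to 2.79). Lower were Gnpnat1 (ratio 0.395, 0.291 to 0.539), Gfpt1 (0.442, 0.309 to 0.637), Pgm3 (0.488, 0.302 to 0.802) and Uap1 (0.602, 0.423 to 0.868). Of all 10221 genes measured, 35.5% were called higher and 25.3% lower, so calls as such were common between these classes, and the clusters were made from the same cells. Of the other genes of the pathway, 11 of 18 measured were higher and 3 lower. They include Renbp, which turns GlcNAc into ManNAc (113 against 18.6 CPM), the sialic acid lyase gene Npl (236 against 41.0), Glul, which makes glutamine (452 against 63.4), and the Uap1 paralogue Uap1l1 (124 against 20.1). In the lysosomal list 9 of 11 were higher and 0 lower, among them the hexosaminidase gene Hexa (698 against 84.3), while the median over all genes was 0.12 on the log2 scale and that of this list 1.40.

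Mesenchyme-like against acinar-like cells of the knockout library gave another picture. All 10 genes reached 20 UMIs, Gfpt2 through its 19 UMIs in the mesenchyme, and 7 were higher and 0 lower, beside 38.7% and 14.5% of 10538 genes. Higher were Gfpt2 (10.8-fold, 3.18 to 56.9), Nagk (3.02-fold, 2.19 to 4.20), Ogt (2.83-fold, 2.23 to 3.61), Mgea5 (1.81-fold), Gfpt1 (1.72-fold), Pgm3 (1.59-fold) and Uap1 (1.53-fold), while Gnpnat1 had a ratio of 0.688 (0.529 to 0.888). The median of all genes here was 0.33 on the log2 scale. Under TMM scaling (factor 0.812) or median-of-ratios scaling (0.792), 3 of the 10 were called higher and 2 lower. No ratio crossed 1 under these scalings, and only the calls at 1.5-fold moved. Among genes that use UDP-GlcNAc in the secretory pathway, 9 of 23 measured were higher and 6 lower, beside the 38.7% and 14.5% of all genes. The hyaluronan synthase gene Has2 was at 12.8 CPM (22 UMIs) in mesenchyme-like and 0.341 CPM (1 UMI) in acinar-like cells, a ratio of 37.5 (6.06 to 1547). Like Gfpt2, it reached 20 UMIs only through the mesenchyme, so a high ratio followed from the floor. Mgat4a, which branches N-glycans, was at 5.81 against 28.6 CPM.

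Cym-high cells against the other trunk/ductal-like cells of the knockout library had 9 genes measured, with 2 higher and 3 lower, beside 17.4% and 11.5% of 9327 genes. Higher were Amdhd2 (2.20-fold, 1.22 to 4.24) and Nagk (1.78-fold, 1.203 to 2.70). Lower were Ogt (ratio 0.429, 0.284 to 0.646), Mgea5 (0.473, 0.264 to 0.848) and Uap1 (0.592, 0.383 to 0.920). Ogt and Mgea5 thus stood lower together here. Gut and stomach markers summed to 1528 CPM in Cym-high cells and 184 in the other trunk/ductal-like cells, and trunk/ductal markers to 7509 and 9511. The part of this makeup in the result was not tested.

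**Figure D3:**
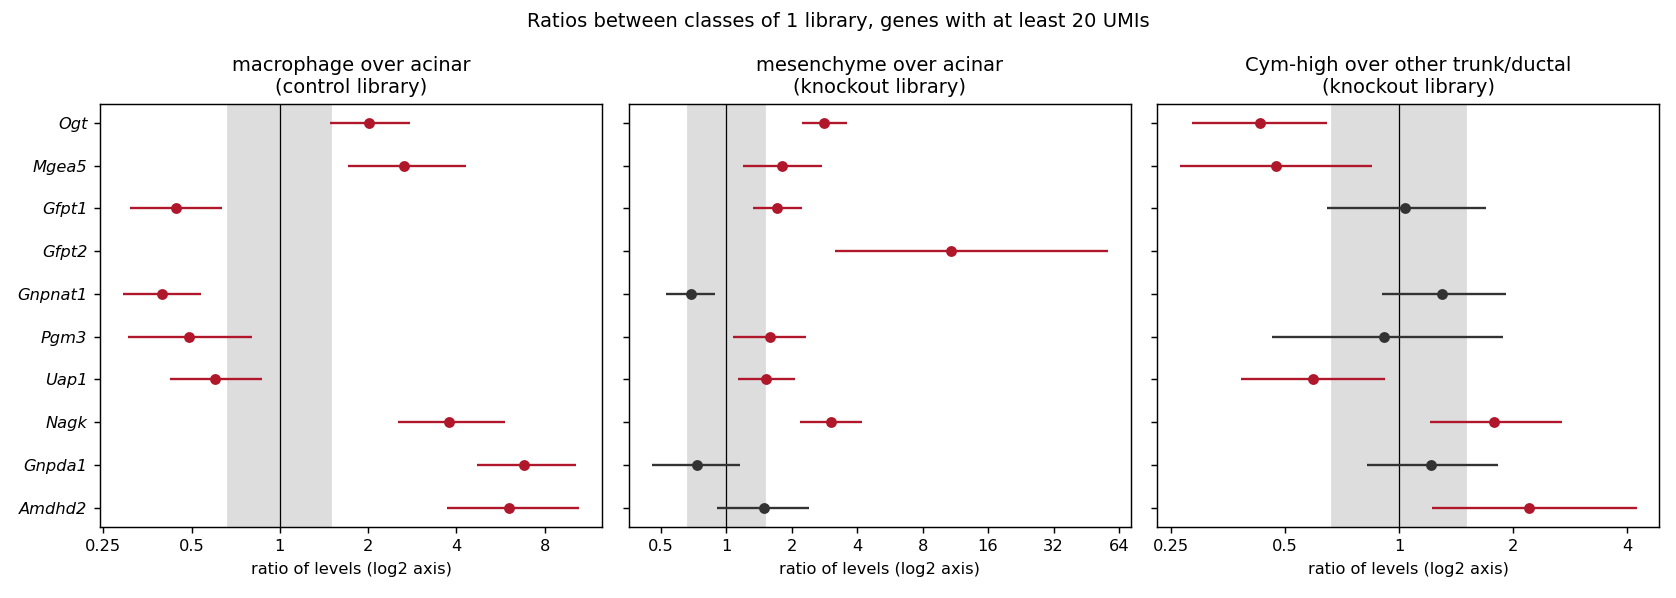
Ratio of levels (x axis, log2) for each gene with at least 20 UMIs between macrophage-like and acinar-like cells of the control library, and between mesenchyme-like and acinar-like and between Cym-high and other trunk/ductal-like cells of the knockout library. Bars are exact conditional 95% intervals, the grey band spans ratios within 1.5-fold of 1 and red marks called genes. In the left panel Ogt, Mgea5, Nagk, Gnpda1 and Amdhd2 sit above the band and Gfpt1, Gnpnat1, Pgm3 and Uap1 below it.

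The knockout was compared with the control within classes of at least 15 cells in each library. In acinar-like cells 0 of 9 measured genes were called, beside 14.5% of 9538 genes called higher and 13% called lower. The ratios were 1.03 for Ogt (0.727 to 1.47), 0.942 for Mgea5 (0.557 to 1.64), 0.998 for Gfpt1 (0.717 to 1.41), 1.24 for Gnpnat1 (0.947 to 1.63), 0.897 for Pgm3, 0.882 for Uap1, 1.05 for Nagk, 0.988 for Gnpda1 and 1.01 for Amdhd2 (0.559 to 1.91). Every interval held 1. Those of Ogt and Gfpt1 lay within 1.5-fold of 1 in both directions. The other 7 reached past 1.5-fold in at least 1 direction, so that a difference of that size lay within counting error for them. Over 13 alternatives the Ogt ratio ran from 0.531 to 1.13 and the Gfpt1 ratio from 0.949 to 1.99, so both reached past 1.5-fold in 1 direction. All but 1 of the acinar-like control cells came from another cluster than the knockout ones (led by Prss1 and Try10 in control and by Cpa1 and Serpina6 in knockout). Which Ogt exons are floxed is not given in the sources used here. Tags that lie outside the deleted part would still be counted, so the Ogt level is no check of the deletion.

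In trunk/ductal-like cells 9 genes were measured, with 0 higher and 1 lower, beside 13.4% and 12.6% of 7124 genes. Amdhd2 was the lower gene, at 28.2 against 16.6 CPM from 14 UMIs each (ratio 0.588, 0.260 to 1.33), and its interval held 1. With the Cym-high cells joined to the knockout class, the Amdhd2 ratio was 1.07. Ogt had a ratio of 0.725 (0.476 to 1.11) and Nagk of 0.693 (0.406 to 1.19), and neither was called. Of the other 6, Gnpnat1 (1.31) and Pgm3 (1.18) lay above 1 and Gnpda1 (0.907), Gfpt1 (0.882), Mgea5 (0.850) and Uap1 (0.840) below it.

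Endocrine-like cells were 20 in control and 42 in knockout. Of 7 genes measured, 1 was higher and 3 lower, beside 23% and 17.2% of 6000 genes. Ogt was 123 CPM in control and 29.5 in knockout from 21 UMIs each, a ratio of 0.241 (0.125 to 0.463). Uap1 had a ratio of 0.328 (0.141 to 0.790, 11 and 15 UMIs) and Mgea5 of 0.459 (0.212 to 1.05, 11 and 21 UMIs). Gfpt1 had a ratio of 1.62 (0.726 to 4.24, 7 and 47 UMIs). The intervals of Ogt and Uap1 lay below 1, those of Mgea5 and Gfpt1 held it. Ogt UMIs were found in 11 of 20 control and 12 of 42 knockout cells, at median depths of 7576 and 16608.5 UMIs. In a draw of 5000 UMIs per cell, 2 of the 15 control cells that deep (13.3%, 1.66 to 40.5) and 2 of 42 knockout cells (4.76%, 0.582 to 16.2) kept one, and these intervals overlapped. The shares expected over all draws were 38.4% and 11.3%. The 5 cells with most Ogt UMIs held 71.4% of them in control and 66.7% in knockout. Without the 5 highest cells of each gene no gene was called lower, since 20 UMIs were no longer reached, though the Ogt ratio was 0.221, and under a stricter cell filter (1000 genes or more, mitochondrial UMIs of 5% or less) 1 gene was lower. The Ogt ratio ran from 0.137 to 0.323 over 13 alternatives, the lowest with only the 3 control cells whose Xist reached 3 UMIs and which lacked Y-linked ones. The endocrine makeup differed as well: Neurog3, which marks progenitors, was at 2489 against 997 CPM, Ins2 at 10863 against 1246 and Ghrl, which encodes ghrelin, at 1946 against 4215. Its part in the result was not tested.

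Leukocyte-like cells, 717 and 79, lie outside the Pdx lineage and differed in makeup, with macrophage-like cells 414 of the control and 6 of the knockout cells. Of 9 genes measured, 3 were higher and 2 lower in the knockout, beside 21.4% and 17.4% of 10995 genes. Gnpda1 (130 against 67.4 CPM, ratio 0.520, 0.414 to 0.646) and Amdhd2 (64.6 against 34.1, ratio 0.527, 0.380 to 0.715) were lower, and Uap1 (1.63-fold, 1.18 to 2.23), Gnpnat1 (1.56-fold, 1.12 to 2.13) and Pgm3 (1.51-fold, 0.938 to 2.36) were higher. Under TMM or median-of-ratios scaling 1 of these 3, Uap1, was called. Ogt (ratio 0.725, 0.548 to 0.944) and Nagk (0.739, 0.555 to 0.966) had intervals below 1 and were not called. Within the S100a8-led cluster, 46 and 20 cells whose neutrophil and monocyte markers differed as given above, 6 genes were measured. The part of that makeup was not tested. Of them 1 was higher, Nagk (1.51-fold, 0.669 to 3.42, and below 1 in 3 of the alternatives, at 0.998, 0.915 and 0.951), and 1 lower, Gnpda1 (ratio 0.605, 0.352 to 1.01), beside 18.4% and 20.1% of 4516 genes. Ogt was at 57.1 and 46.5 CPM there (ratio 0.815, 0.393 to 1.62), and all 6 intervals held 1.

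**Figure D4:**
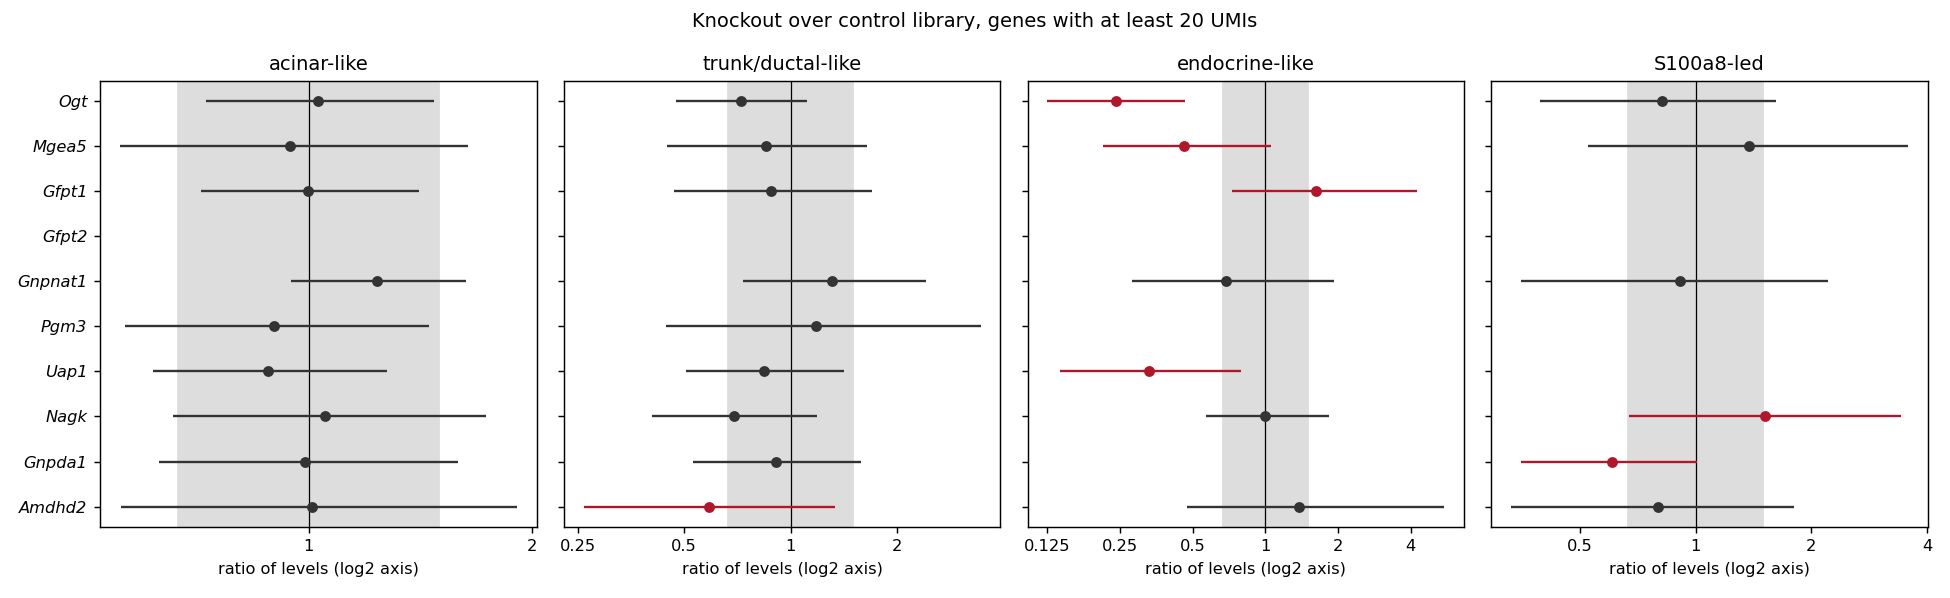
Ratio of knockout to control level (x axis, log2) for each gene with at least 20 UMIs in acinar-like, trunk/ductal-like, endocrine-like and S100a8-led cells. Bars are exact conditional 95% intervals, the grey band spans ratios within 1.5-fold of 1 and red marks called genes. All 9 acinar-like points lie within the band, and in endocrine-like cells Ogt (0.241), Uap1 (0.328) and Mgea5 (0.459) lie below it.

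Ogt lies on the X chromosome, and the libraries differed in Xist. The 241 X-linked genes measured in control macrophage-like cells had a median log2 ratio of 0.02 between 51 cells that looked female (Xist at 3 UMIs or more, none from 4 Y-linked genes) and 193 that looked male. Ogt was at 58.6 CPM in the former and 80.8 in the latter, a ratio of 0.725 (0.488 to 1.05). Between the libraries, X-linked genes had a median log2 ratio of 0.08 in acinar-like and 0.19 in endocrine-like cells, against 0.03 and 0.04 for other genes. The part of sex in the Ogt ratios was not tested.

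Lists of other genes of the pathway were also compared between knockout and control. In acinar-like cells 1 of 16 measured hexosamine and UDP-GlcNAc genes was higher and 5 lower, and 0 and 3 of 11 lysosomal genes, beside 14.5% and 13% of all genes, with median log2 ratios of -0.27 and -0.29 beside 0.03 for all genes. Those lower include genes that stood higher in macrophage-like than in acinar-like control cells, Npl (10.2 against 41.0 CPM in control), Renbp (6.82 against 18.6) and Hexa (39.2 against 84.3). The macrophage markers that stood at 230 and 2263 CPM in the same cells move with them, and their part was not tested. Of 8 measured genes of the unfolded protein response, 2 were lower, the chaperone cofactor gene Sdf2l1 (208 against 436 CPM, ratio 0.476, 0.424 to 0.535) and the sensor gene Atf6 (7.50 against 19.3). Among 14 measured OGT partners and substrates 0 were higher and 1 was lower, the trafficking adaptor gene Trak1 (10 and 11 UMIs, ratio 0.401, 0.153 to 1.04). In endocrine-like cells, where 23% of all genes were called higher and 17.2% lower, 3 of 10 hexosamine and UDP-GlcNAc genes were higher and 0 lower, among them Gnpda2, the Gnpda1 paralogue (29 and 2 UMIs, ratio 3.49, 0.883 to 30.2), and 4 of 8 unfolded protein response genes were higher and 1 lower, with the chaperone gene Hspa5 at 717 against 421 CPM (ratio 1.70, 1.33 to 2.21).

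Genes whose log2 levels over the 13 classes of at least 30 cells were most like those of Ogt, among 6065 genes with a mean of at least 20 CPM, were Itgb1 (r = 0.85), Tm7sf3 (0.84), Zfyve21 (0.83), Vps26b (0.83) and Fto (0.83). Most like Mgea5 were Cant1 (0.87), Tpp2 (0.87), Snx17 (0.86), Plgrkt (0.86) and Ptpra (0.85). Among the 10 genes themselves, Gnpda1 and Amdhd2 had an r of 0.85 and Gfpt1 and Gfpt2 of 0.75, while Gfpt1 and Gnpda1 had an r of -0.91 and Gnpnat1 and Amdhd2 of -0.83. These values rest on 13 points from 2 libraries.

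The genes lie on 9 chromosomes of GRCm38 (the mm10 build), as annotated in GENCODE M21. Ogt (ENSMUSG00000034160) spans X:101640060-101684351 on the plus strand with 22 exons and Mgea5 (ENSMUSG00000025220) 19:45750259-45783837 on the minus strand with 16. Gfpt1 spans 6:87042846-87092197, Gfpt2 11:49794178-49838613 and Nagk 6:83794982-83804018, all on the plus strand. Gnpnat1 spans 14:45376334-45404913, Pgm3 9:86554377-86571842, Uap1 1:170141938-170174957, Gnpda1 18:38327535-38339003 and Amdhd2 17:24155833-24163766, all on the minus strand.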

How the data were processed

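Whole-number UMI counts per gene and cell were used as deposited, in 1 table per genotype. Cell Ranger 2.0.0, Seurat 2.0, DESeq2 1.14.1 and mm10 are named per the submitters' processing notes. Chemistry, strand setting and barcode filter: not given in the sources used here. Of 27998 identifiers, 27645 received a symbol; the other 353 held 0.0294% of UMIs and entered the totals only. The members and lists were chosen with earlier results of these data known.

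Cells of 500 genes or more and 10% mitochondrial UMIs or less were kept (16 control and 56 knockout barcodes failed), and 4 and 8 doublets marked by Scrublet were removed. Both libraries were clustered together (scanpy 1.11.5, 2000 variable genes, 30 components, 15 neighbours, Leiden resolution 1). Clusters were named by the best-scoring marker list with 3 or more markers detected, unless more of the 10 leading genes marked another type. A control cluster of 91 cells led by haemoglobin genes and Lyve1 stayed unnamed. This naming rule, the Cym-high split and the name S100a8-led were settled after the data were seen. Named genes were all 10 members, listed genes with at least 40 UMIs and a ratio of at least 2 or at most 0.5 or the 2 highest and lowest of a list, and the 5 most alike. Some listed genes are counted but not reported here by name. Likeness was Pearson's r of log2(CPM + 10). Intervals were run on simulated class sums with Poisson counts. These held no spread between cells, so they cannot show how the intervals do when few cells hold most UMIs. Alternatives changed filters, doublets, resolution, joint clustering, scaling (edgeR 4.0.16, DESeq2 1.42.0), totals, cell weighting, UMI floor, fold and thinning.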

Additional observations from a re-analysis of the deposited data

How the results depend on the processing

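Of the ratios of single genes recomputed under the alternatives, 901 moved by less than their interval, 25 moved by more and 4 changed side of 1. These 4 were Amdhd2 in trunk/ductal-like cells with Cym-high cells joined (1.07, chosen after seeing the data) and Nagk in S100a8-led cells without the cell filter (0.998), with clustering without the pathway genes (0.915) and without the 5 highest cells (0.951). Counts of called genes are small, and 53 of them moved by over 1.5 times while 179 did not; the cause was not tested. For knockout over control, trunk/ductal-like cells had 2 genes lower without the cell filter, with doublets kept or with no minimum of UMIs, 0 lower at a ratio of 2, and 1 higher with means of cells' own levels or without the 5 highest cells. With Cym-high cells joined they had 1 higher and 3 lower. Endocrine-like cells had 1 lower under the stricter cell filter (1000 genes, 5% mitochondrial UMIs), 2 higher and 0 lower without the 5 highest cells, 3 higher with no minimum and 0 higher at a ratio of 2. Acinar-like cells had 1 higher without the 5 highest cells. Leukocyte-like cells had 1 higher under the stricter cell filter, resolution 1.5, TMM or median-of-ratios scaling, 0 higher and 4 lower without the 5 highest cells, 4 lower with each library clustered alone, and 0 and 0 at a ratio of 2. S100a8-led cells had 0 higher without the cell filter, under the stricter filter, with reduced totals (enzyme, hormone, ribosomal and mitochondrial genes left out) and without the 5 highest cells, 2 higher with doublets kept, 0 higher and 0 lower at resolution 0.6, with clustering without the pathway genes or at a ratio of 2, and 0 higher and 2 lower with means of cells' own levels. Mesenchyme-like over acinar-like cells had 3 higher and 2 lower under TMM or median-of-ratios scaling, 4 and 2 with the reduced totals, 3 higher at a ratio of 2, and 1 lower under the stricter filter, means of cells' own levels or without the 5 highest cells. Cym-high over trunk/ductal-like cells had 1 higher at a ratio of 2. With female-looking control cells only, an alternative chosen after seeing the data, acinar-like cells (4 control cells) had 6 higher and 2 lower, trunk/ductal-like cells 1 and 2, and endocrine-like cells 2 and leukocyte-like cells 1 higher.

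Joining the haemoglobin-high cluster to macrophage-like cells, also added after seeing the data, moved none of its 9 ratios. Leaving out each run could not be run. No paired analysis was possible because the runs of a library are pooled in its table and neither columns nor barcodes separate them. Trunk/ductal-like and S100a8-led comparisons gave no value with each library clustered alone, and S100a8-led ones none with female-looking control cells. Some classes held few UMIs: in endocrine-like cells 20 control cells gave 21 Ogt UMIs.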
